A study of Homo sapiens with 4 samples.

Results

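The genes described here write, read and erase histone acetylation, and H3K27ac, the mark used to pull down the loops, is itself set and removed by their products. The 9 genes were the writers EP300, CREBBP, KAT2A and KAT2B, the readers BRD2 and BRD3, and the erasers HDAC1, HDAC2 and HDAC3. A loop was assigned to a gene when any GENCODE transcript start of that gene lay inside one of its 5 kb anchors on hg19. By this rule 30 of the 27289 loops in the WT list and 33 of the 25621 loops in the STAG2-KD list belonged to the 9 genes, which made 43 distinct loops. A loop was called shared when the 2 lists gave it the same pair of bins, and otherwise WT-only or STAG2-KD-only.

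H3K27ac HiChIP ligates DNA ends that are near each other in the nucleus and then enriches the ligated chromatin that carries acetylated lysine 27 of histone H3, a mark of active promoters and enhancers. It was carried out in M14, a human melanoma cell line in which every sample held the same hairpin targeting STAG2, one of the cohesin subunits, switched on by doxycycline and selected with puromycin. WT cells were kept without doxycycline and STAG2-KD cells with it for 5 days. The labels gave 2 samples per group, and a single loop list for each group, filed with replicate 1, was used. Since the only untreated and treated cells carried the same hairpin, the effects of doxycycline and of STAG2 loss cannot be told apart here. STAG2 lies on chromosome X, for which both lists held 0 loops, so the knockdown could not be checked in them.

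Neither list gave read counts or scores, which leaves the depth under each loop unknown, as is how near to the caller's limit a loop missing from a list came. Each group had 1 list, so the spread between replicates is unknown for every comparison and none was tested. Intervals are 95% exact binomial (Clopper-Pearson) intervals, cover the counting of loops only, and treat loops as independent although loops of 1 gene share an anchor.

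As background, EP300 (p300) and CREBBP (CBP) are paralogous acetyltransferases and the main writers of H3K27ac at enhancers. KAT2A (GCN5) and KAT2B (PCAF) are alternative catalytic subunits of the SAGA and ATAC coactivator complexes and act mainly on lysine 9 of histone H3. BRD2 and BRD3 are BET proteins, which bind acetylated histone tails through bromodomains and recruit transcription machinery. HDAC1 and HDAC2 are deacetylases of the SIN3, NuRD and CoREST complexes, and HDAC3 works with the NCoR and SMRT corepressors.

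Promoter sequences of 3 members are shown, chosen by their loops: EP300 had no shared loop, BRD2 had the most loops, and HDAC1 kept every WT loop. Among the other members with a loop, KAT2A also had no shared loop and BRD3 also kept every WT loop, each with 1 WT loop. Each window was read from the hg19 reference, 5′ to 3′ on the gene's strand, from 250 bases before the annotated canonical start to 50 bases from it on. Capitals mark matches to the motifs named after them.
EP300 promoter, chr22:41488346-41488645, plus strand: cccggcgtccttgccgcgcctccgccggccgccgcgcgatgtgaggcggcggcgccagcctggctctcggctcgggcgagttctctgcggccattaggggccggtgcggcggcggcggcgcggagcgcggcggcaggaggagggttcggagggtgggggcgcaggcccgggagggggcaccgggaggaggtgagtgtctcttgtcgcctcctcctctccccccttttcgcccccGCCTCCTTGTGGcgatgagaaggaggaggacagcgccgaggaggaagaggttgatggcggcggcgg
BRD2 promoter, chr6:32936121-32936420, plus strand: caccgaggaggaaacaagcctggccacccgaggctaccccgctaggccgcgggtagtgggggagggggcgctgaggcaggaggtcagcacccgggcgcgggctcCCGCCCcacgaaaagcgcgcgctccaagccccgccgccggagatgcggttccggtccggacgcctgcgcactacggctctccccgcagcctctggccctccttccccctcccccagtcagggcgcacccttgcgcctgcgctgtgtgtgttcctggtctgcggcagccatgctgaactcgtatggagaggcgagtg
HDAC1 promoter, chr1:32757434-32757733, plus strand: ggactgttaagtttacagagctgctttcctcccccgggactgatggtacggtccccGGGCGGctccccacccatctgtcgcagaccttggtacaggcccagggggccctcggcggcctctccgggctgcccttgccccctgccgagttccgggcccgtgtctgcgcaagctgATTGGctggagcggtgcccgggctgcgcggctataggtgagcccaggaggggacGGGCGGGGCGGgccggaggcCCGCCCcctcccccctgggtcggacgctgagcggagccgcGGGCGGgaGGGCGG

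The motifs searched on both strands were the CTCF core, the GC box GGGCGG, the ETS site CCGGAAG, the NRF1 site, the cAMP response element TGACGTCA, the E-box CACGTG, the CCAAT box CCAAT and the AP-1 site TGANTCA, and matches could overlap. A GC box was found in 6 of 9 member promoters and in 61.8% of the 18970 promoters of protein-coding genes with a complete window of this length. HDAC1 and BRD3 held 6 GC boxes each, BRD2 held 1, and EP300, KAT2A and HDAC2 held 0. The only CCAAT box lay in the HDAC1 promoter, against a share of 35.7% of all promoters. EP300 was the only member with a CTCF core in its promoter, on the opposite strand at position -16 counted from 0 at the start, and 1.29% of all promoters held one. The other motifs, present in 14.2% (ETS), 1.71% (NRF1), 2.71% (cAMP response element), 8.70% (E-box) and 5.33% (AP-1) of promoters, had 0 matches in the 9 windows. The GC content of the windows ran from 62% in KAT2A to 85% in BRD3, with a median of 63.7% over all promoters.

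CTCF core matches in the complete anchors are shown because CTCF sites are where cohesin often stops. They were found in 2 of the 12 member anchors and 3 of the 42 distinct partner anchors, against 6.72% of the 30601 anchors of either list. All of these anchors belonged to loops of EP300 or BRD2. Matches in 4 of these 5 anchors are printed, with the 12 bases of the match in capitals, each written on its own strand.
EP300 anchor, chr22:41488571-41488600, minus strand: ttctcatcgCCACAAGGAGGCgggggcgaa
BRD2 anchor, chr6:32937903-32937932, minus strand: gacagaggcCCATCAGGGGGCcggccatgg
BRD2 shared partner at 815 kb, chr6:32122520-32122549, minus strand: tgatgtattCCAGCAGGTGGCggaagctgt
BRD2 STAG2-KD-only partner at 20 kb, chr6:32921158-32921187, minus strand: agcattctgCCAGGAGGTGGCactgctctg
BRD2 STAG2-KD-only partner at 20 kb, further match, chr6:32922963-32922992, minus strand: ttgattctgCCAGTAGGAGGCactgatggg

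Loops were unevenly spread over the 9 genes. BRD2 had 13 loops in WT and 16 in STAG2-KD, HDAC1 had 6 and 8, KAT2B had 4 and 3, and HDAC3 had 3 and 3. EP300 had 2 and 1, BRD3 had 1 and 2, and KAT2A had 1 and 0. CREBBP and HDAC2 had 0 in both lists. At least 1 loop was found for 7 of 9 members, and for 44.5% of the 19222 protein-coding genes on the autosomes, so 55.5% had none. Without replicates it is unknown which neighbours in this order differ beyond their spread. The number of 5 kb bins with an annotated start also differed between the genes, from 2 for KAT2A to 12 for CREBBP, and CREBBP nevertheless had 0 loops.

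**Figure D1:**
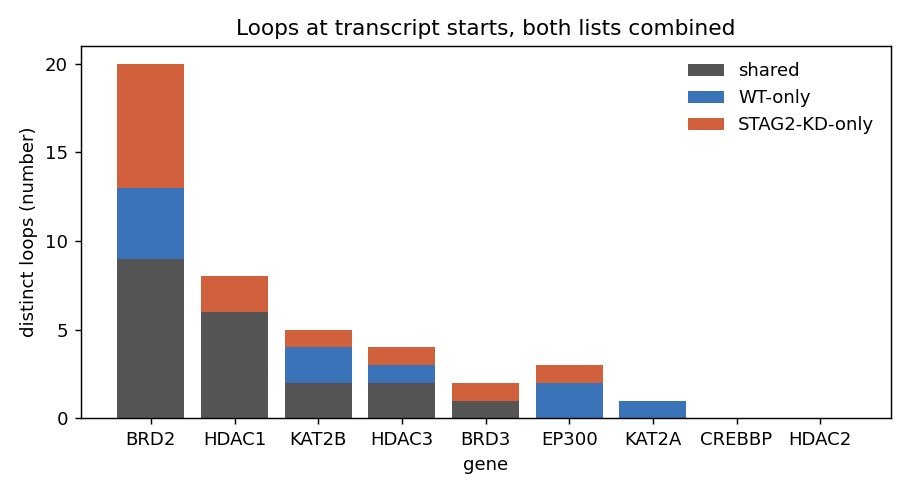
Distinct loops (number) at transcript starts of each of the 9 genes, split by colour into shared, WT-only and STAG2-KD-only loops. BRD2 had 20 distinct loops and HDAC1 had 8, and CREBBP and HDAC2 had 0.

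None of the 9 genes was called changed, where a call needed a difference of at least 2-fold and at least 4 loops in the larger list. Only BRD2, HDAC1 and KAT2B reached 4 loops in a list, so the other members could not be called whatever their difference. Among those, EP300 (2 WT and 1 STAG2-KD loops), BRD3 (1 and 2) and KAT2A (1 and 0) met the 2-fold part alone. Over all 8563 protein-coding genes with a loop, 5.01% were called higher in STAG2-KD and 6.40% lower. More loops in STAG2-KD than in WT were counted for 3 members (BRD2, BRD3 and HDAC1) and for 34.4% of genes with a loop. Fewer were counted for 3 members (EP300, KAT2A and KAT2B) and for 43.5% of genes. These directions depended on which starts and bins were counted, since KAT2B had 3 loops in each list with protein-coding transcripts only, and with the bin on either side of a start included KAT2A had 1 WT loop and 3 STAG2-KD loops. HDAC3 had equal numbers, as did 22.1% of genes, but had 3 WT and 2 STAG2-KD loops with protein-coding transcripts only. By role, the 4 writers had 7 WT and 4 STAG2-KD loops, the 2 readers 14 and 18, and the 3 erasers 9 and 11, so these totals were small outside BRD2 and HDAC1.

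The 43 distinct loops divided into 20 shared, 10 WT-only and 13 STAG2-KD-only. Sharing covered 66.7% of the members' WT loops (47.2 to 82.7) and 60.6% of their STAG2-KD loops (42.1 to 77.1). Over the complete lists the shared part was 38.0% in WT and 40.5% in STAG2-KD. The closer background is loop ends at starts of protein-coding genes, each loop counted from every end with such a start, of which 42.5% (41.8 to 43.2) were shared in WT and 45.1% (44.4 to 45.8) in STAG2-KD. Loops that touched an anchor with 10 or more loops were shared at 45.2% and 48.5%.

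BRD2 and HDAC1 supplied 15 of the 20 shared loops. Without BRD2, 11 of 17 WT loops were shared (64.7%, 38.3 to 85.8). Without BRD2 and HDAC1, 5 of 11 were (45.5%, 16.7 to 76.6). Of these sets, the background of loop ends at protein-coding starts lay below the interval only for the WT loops of all 9 members. It lay inside the interval for their STAG2-KD loops and for both lists without BRD2. By role, it lay below the interval for the WT loops of the erasers (8 of 9 shared, 51.8 to 99.7), 6 of them at HDAC1. For the WT loops of the writers and of the readers it lay inside. All 20 shared loops had their member anchor at the bin of the gene's 5′ end. The 5 loops anchored at a start inside a gene were all private, 2 of them WT-only and 3 STAG2-KD-only. Most private loops also left from the 5′ end bin, 8 of 10 in WT alone and 10 of 13 in STAG2-KD alone. Sharing at internal starts was not counted over all genes, so these 5 loops have no background and show no difference between kinds of start.

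**Figure D2:**
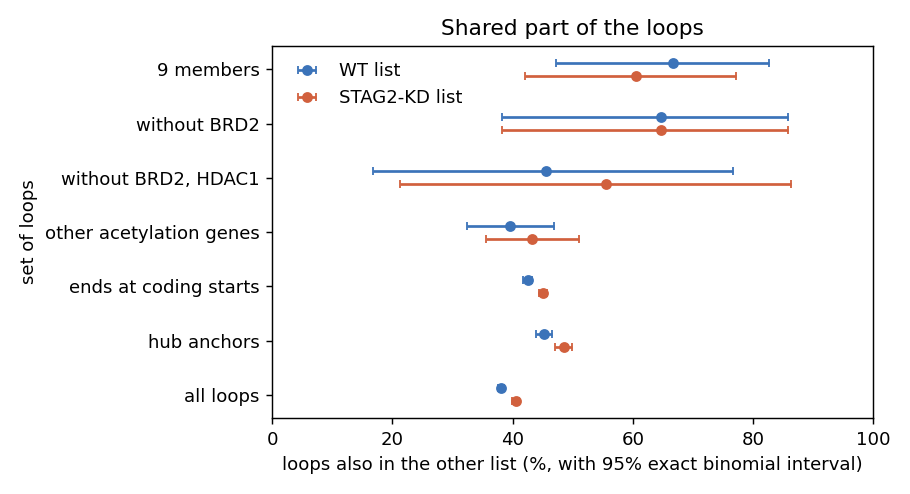
Percentage of loops that were also in the other list (horizontal axis, points) with 95% exact binomial intervals (bars), for WT (blue) and STAG2-KD (orange) loops of the members with and without BRD2 and HDAC1, of the other acetylation genes, of loop ends at protein-coding starts, of hub anchors (10 or more loops) and of all loops. The members' values of 66.7% and 60.6% moved to 45.5% and 55.6% without BRD2 and HDAC1.

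The writers had few loops, of which 2 of 7 in WT (28.6%, 3.67 to 71) and 2 of 4 in STAG2-KD (50%, 6.76 to 93.2) were shared. Both intervals contained the shared part of loop ends at protein-coding starts, 42.5% in WT and 45.1% in STAG2-KD. EP300 spans 41488596 to 41576081 on the plus strand of chromosome 22 (ENSG00000100393). Its loop from the 5′ end bin, chr22:41485001-41490000, ran 70 kb upstream in WT alone, to a bin with no transcript start. The other EP300 loops left from internal starts and ended in the same bin, chr22:41345001-41350000, which holds a start of RBX1, the RING subunit of cullin ubiquitin ligases. The WT-only loop of 180 kb started at the bin from 41525001 and the STAG2-KD-only loop of 210 kb at the bin from 41555001. In each list 6 loops ended at the RBX1 bin. A shared loop of 145 kb also joined it to the bin from 41490001, next to the EP300 5′ end bin, so contact between the RBX1 start and the EP300 region was listed in both states although no loop at an EP300 start was shared. No shared loop was also the case for 44.5% of protein-coding genes with a loop.

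CREBBP, on the minus strand of chromosome 16 (3775055 to 3930714, ENSG00000005339), had 12 bins with a start and no loop at any of them. The nearest anchor to its 5′ end bin was 55 kb away in WT and 5 kb away in STAG2-KD. The latter belonged to a STAG2-KD-only loop of 395 kb from the bin chr16:3925001-3930000, inside CREBBP, to a bin with a start of TFAP4, a transcription factor that binds E-boxes. The 5′ end bin held 15 sites of MboI, the enzyme that cut the chromatin, and the median over all anchors was 14.

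KAT2A, on the minus strand of chromosome 17 (40265129 to 40273385, ENSG00000108773), had a single WT-only loop, 75 kb upstream to a start of GHDC. Its anchor, chr17:40270001-40275000, also holds a start of HSPB9, and these genes cannot be separated at this resolution. In STAG2-KD the bin from 40260001, which lies past the 3′ end of KAT2A and next to one of its start bins, carried 3 private loops of 45, 175 and 410 kb, to starts of RAB5C, of ACLY and ODAD4, and of ATP6V0A1. These were not counted as KAT2A loops.

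KAT2B, on the plus strand of chromosome 3 (20081938 to 20195896, ENSG00000114166), was the writer with shared loops. From chr3:20080001-20085000 a shared loop ran 95 kb upstream to starts of RAB5A, a small GTPase of early endosomes, and EFHB, and another ran 25 kb downstream into KAT2B itself. The WT-only loop from the same anchor ended inside RAB5A at 75 kb, and the STAG2-KD-only loop ended inside EFHB at 155 kb. The partner bins of these private loops carried 0 loops in the other list. A further WT-only loop of 40 kb joined an internal start to another bin of KAT2B. The region just upstream was thus contacted in both states, and the end bins of the private loops were 4 and 12 bins from the nearest partner in the other list.

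Of the readers, BRD2 formed a hub. The gene (ENSG00000204256, chromosome 6, 32936371 to 32949282, plus strand) is inside the major histocompatibility complex. The 5′ end bin, chr6:32935001-32940000, was an anchor of 13 WT and 15 STAG2-KD loops. As many or more were found at 0.767% of WT anchors and 0.362% of STAG2-KD anchors. The same bin holds a start of HLA-DMA, a chaperone of class II antigen loading, so the loops cannot be assigned to BRD2 rather than HLA-DMA. Counted per gene, 0.369% of protein-coding genes had 29 or more loops in both lists together, the number at BRD2, and 3.53% had 14 or more, the number at HDAC1.

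Shared partners of BRD2 lay on both sides. Upstream, shared loops of 30, 45, 55 and 95 kb ended at the start of HLA-DMB and in bins with no transcript start. Shared loops of 795 and 815 kb reached starts of AGPAT1, an enzyme of phospholipid synthesis, and of PPT2 and PRRT1. Downstream, shared loops of 230, 280 and 330 kb ended at starts of the nuclear receptor RXRB and the zinc transporter SLC39A7, in VPS52, and at a start of RGL2. The bins at 230 and 280 kb were themselves hubs, with 13 and 11 loops in WT and 13 and 16 in STAG2-KD. In both lists together 20 loops were counted, of which 9 were shared (69.2% of WT loops, 38.6 to 90.9, and 56.2% of STAG2-KD loops, 29.9 to 80.2).

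Private BRD2 loops often ended near the other list's partners. The WT-only loop of 115 kb ended at starts of PSMB9 and TAP1, and the STAG2-KD-only loop of 125 kb ended 2 bins further out, at starts of PSMB8 and PSMB9. These genes encode subunits of the immunoproteasome and the peptide transporter of antigen presentation. These and the further private partners of BRD2 were named after their values had been seen. On the far side, WT-only loops of 175, 220 and 425 kb ended at a noncoding start, at COL11A2 and inside KIFC1. STAG2-KD-only loops of 300 and 440 kb ended at starts of RPS18 and VPS52, and of PHF1, an accessory protein of Polycomb complex 2. Their end bins were 4 and 3 bins from the nearest WT partner.

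The remaining STAG2-KD-only loops of BRD2 lay upstream. A loop of 775 kb ended at starts of GPSM3 and NOTCH4, 4 bins from the shared partner at AGPAT1, in a bin with 2 WT and 8 STAG2-KD loops. A loop of 75 kb ended in a bin with 1 and 5. The shortest, 20 kb, joined an internal BRD2 start to a bin in HLA-DMA that had 0 loops in WT and 2 in STAG2-KD. Of the members, only BRD2 had loops over 500 kb, 2 in WT and 3 in STAG2-KD. Such loops made up 3.63% of the WT list and 4.52% of the STAG2-KD list, of which 31.8% and 27.2% were shared.

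BRD3, on the minus strand of chromosome 9 (136895427 to 136933657, ENSG00000169925), had 1 loop in WT and 2 in STAG2-KD, all from chr9:136930001-136935000. The shared loop ran 40 kb downstream to a start of BRD3OS, the gene on the opposite strand next to BRD3. The STAG2-KD-only loop ran 70 kb upstream to a start of WDR5, an adaptor of histone H3 lysine 4 methyltransferases. The WDR5 bin carried 2 loops in each list, so it was an anchor in WT without a loop to BRD3.

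Among the erasers, HDAC1 was the member with the most complete sharing. The gene (ENSG00000116478, chromosome 1, 32757684 to 32799236, plus strand) had a single start bin with loops, and all of them left from chr1:32755001-32760000. All 6 WT loops were also in the STAG2-KD list (interval 54.1 to 100%). With the bin on either side of a start included, 10 of 11 were, and the exception was a loop of 155 kb between the MARCKSL1 bin and a start of TXLNA. Of the 1625 protein-coding genes with 5 or more WT loops, 1.54% had every WT loop shared. Upstream they ran 45, 70 and 85 kb to starts of FAM167B, of the translation initiation factor subunit EIF3I with TMEM234, and of IQCC with DCDC2B. Downstream they ran 20 kb into HDAC1 itself, 45 kb to the start of MARCKSL1, an actin-binding protein gene, and 60 kb to that of TSSK3, a testis kinase gene.

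STAG2-KD added 2 loops at HDAC1. The loop of 30 kb ended inside HDAC1, 2 bins from the shared intragenic partner, in a bin with 0 loops in WT. The loop of 105 kb ended at the start of BSDC1, in a bin with 6 loops in each list. Other genes in the lists had similar counts: AP1G1 and ATXN1L were among 13 genes that differed from HDAC1 by 1 loop, summed over shared, WT-only and STAG2-KD-only loops. For BRD2 the nearest were HLA-DMA, at the same anchor, and the histone genes H2BC10 and H3C8, each 1 loop away. These likenesses rest on counts in 2 lists.

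HDAC2, the close paralog of HDAC1, lies on the minus strand of chromosome 6 (114254192 to 114332472, ENSG00000196591) and had no loop in either list. Its most used start bin, chr6:114290001-114295000, holds 12 of its transcripts, and the nearest anchor was 115 kb away in both lists. That bin held 7 MboI sites, the fewest among the canonical start bins of the 9 genes, which ran up to 20 at HDAC1. The bins of BRD3 and BRD2, which had loops, held 8 and 9, and that of CREBBP, which had none, held 15. Whether site number had a part in the absence of loops was not tested.

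HDAC3, on the minus strand of chromosome 5 (141000443 to 141016416, ENSG00000171720), had 3 loops in each list. From chr5:141015001-141020000, a bin that also holds a start of RELL2, shared loops ran 25 kb upstream into ARAP3 and 330 kb upstream to starts of RNF14 and PCDH12. A WT-only loop of 20 kb ended at a start of the formin gene DIAPH1, in a bin with 0 loops in STAG2-KD. The STAG2-KD-only loop of 250 kb left from an internal start to a bin with 6 loops in WT and 9 in STAG2-KD. The equal number of loops in the 2 lists thus included 1 private loop of each list, from different start bins. It depended on the starts counted, since HDAC3 had 3 WT and 2 STAG2-KD loops with protein-coding transcripts only.

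**Figure D3:**
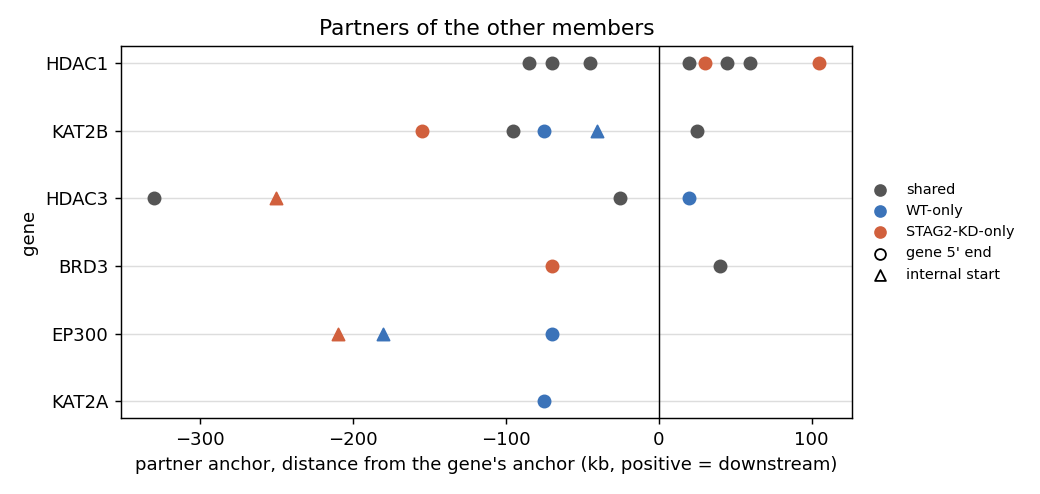
Position of each partner anchor relative to the gene's own anchor (horizontal axis, kb, positive downstream) for the 6 other members with a loop, one row a gene, in grey for shared, blue for WT-only and orange for STAG2-KD-only loops, with circles for loops from the 5′ end bin and triangles for loops from internal starts. HDAC1 partners lay within 105 kb on both sides, and all EP300 and KAT2A partners lay upstream.

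Across the members, partners were mostly promoters. A transcript start lay in the partner anchor of 20 of 30 WT loops (66.7%, 47.2 to 82.7) and 25 of 33 STAG2-KD loops (75.8%, 57.7 to 88.9). The background over loop ends at protein-coding starts was 58.0% (57.3 to 58.7) in WT, inside the members' interval, and 57.2% (56.5 to 57.9) in STAG2-KD, just below theirs. Without BRD2 the members' shares were 64.7% and 70.6%, and both intervals contained the background. A protein-coding start lay at the partner of 13 of 20 shared loops, 5 of 10 in WT alone and 9 of 13 in STAG2-KD alone. Partners lay upstream of the member in 26 of 43 loops and inside the same gene in 4.

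Pooled over the members, the median distance was shortest in the shared set and longest in the STAG2-KD-only set. The median was 65 kb for shared, 95 kb for WT-only and 155 kb for STAG2-KD-only loops of the members. Over loop ends at protein-coding starts the medians were 75, 100 and 100 kb. Without BRD2 the members' medians were 45, 72.5 and 130 kb, from 11, 6 and 6 loops. With protein-coding transcripts only they were 65, 115 and 125 kb. The pooled order did not hold within BRD2, HDAC3 and KAT2B, the members with loops of every class. Their shared medians were 230, 178 and 60 kb, above WT-only medians of 198, 20 and 57.5 kb. The STAG2-KD-only medians, 300, 250 and 155 kb, were the longest in each, but those of HDAC3 and KAT2B were 1 loop each. The other medians of these 2 genes came from 1 or 2 loops. The HDAC3 loop of 250 kb left from a bin with 0 protein-coding transcripts. Under 100 kb lay 14 of 20 shared loops, 5 of 10 in WT alone and 4 of 13 in STAG2-KD alone.

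Private loops were also compared by what the other list held at the same places. The partner bin was an anchor of the other list for 5 of the 10 loops private to WT and 9 of the 13 private to STAG2-KD (69.2%, 38.6 to 90.9), against 62.8% and 63.4% over loop ends at protein-coding starts. In 2 private loops of each list, the same gene anchor had a partner within 2 bins in the other list. In 4 and 8 loops the nearest such partner was further away, and in 4 and 3 the gene anchor had no loop in the other list at all.

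Other genes of the same pathway were taken from a list of 99 writers, readers, erasers and partners of their complexes. The 5 on chromosome X were left out, since the lists hold no loops there. Of the other 94, 57 had a loop, and together they held 185 WT and 169 STAG2-KD loops with 73 in common. The shared part was 39.5% of WT loops (32.4 to 46.9) and 43.2% of STAG2-KD loops (35.6 to 51.0), near the 42.5% and 45.1% of loop ends at protein-coding starts. More loops in STAG2-KD were counted for 17 genes, fewer for 26 and equal numbers for 14.

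The most loops in this list were found at ZMYND8, a bromodomain reader, with 13 in WT and 15 in STAG2-KD but 4 shared. MTA2, a subunit of the NuRD deacetylase complex, had 11 and 8 with 4 shared. TBL1XR1, a subunit of the NCoR and SMRT corepressor complexes that hold HDAC3, had 8 and 11 with 5 shared. By the 2-fold rule, 2 genes were called higher in STAG2-KD, SUPT3H of the SAGA complex with 3 against 6 loops and CHD3, a NuRD remodeller, with 2 against 4. ING5, a subunit of acetyltransferase complexes, was called lower with 4 against 1. These are 2 and 1 of 57 genes, beside the 5.01% and 6.40% over all genes.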

How the data were processed

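H3K27ac HiChIP libraries of M14 cells were grouped by their titles into WT and STAG2-KD. Per the study's methods, the authors used HiC-Pro for alignment (hg19), hichip-peaks for the peaks of H3K27ac and FitHiChIP for loops. For their differential analysis with diffloop, the authors removed self-ligated loops and loops above a false discovery rate limit and filtered on supporting reads in the replicates. Whether these filters apply to the deposited lists, whether replicates were merged in them, and the versions are not given in the sources used here. The deposited lists hold 3 columns of positions (chromosome, start of the left anchor, end of the right anchor) and no count, score or q-value, so depth is unknown. Carriage returns were removed from the STAG2-KD list. The start column was read as counted from 0, and positions are printed counted from 1. No loop ended past its chromosome in the GRCh37 sequence.

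Anchors were taken as 5 kb wide, and distances ran between anchor midpoints. Transcript starts came from GENCODE release 44 lifted to GRCh37, with any transcript type counted. Promoter windows and CTCF core matches were read from the GRCh37 sequence. Intervals are exact Clopper-Pearson. Computation used Python 3.11.15, numpy 2.4.6, scipy 1.17.1, pysam 0.24.0 and matplotlib 3.10.9. The matching was tested on simulated data, and all 12 planted or recounted values were recovered.

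The members and the lists of genes and motifs were chosen with earlier results of these data known. The text names every member, its partners at protein-coding starts (for genes with over 5 such loops, those of shared loops, the nearest, the farthest and those over 500 kb), the 3 other acetylation genes with the most loops, those called changed, and for members with 10 or more loops in both lists together up to 3 genes with the most similar counts. Some partners and genes covered by this rule are not reported here.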

Additional observations from a re-analysis of the deposited data

How the results depend on the processing

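Of 314 values under alternatives, 266 remained in the reported value's interval (for distances within 1 SD over loops, for counts within 1.5 times), and 48 moved, 20 of them counts of single genes. No paired analysis was possible because WT and STAG2-KD each had 1 list, which also left no replicate to omit. The shared part of the members' WT loops moved with the choice of members alone, to 45.5% without BRD2 and HDAC1, a setting added after the data had been seen.

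Without BRD2 the members had 17 WT and 17 STAG2-KD loops: 11 shared, 6 WT-only and 6 STAG2-KD-only. Without BRD2 and HDAC1 they had 11 and 9, with 5 shared, 6 WT-only and 4 STAG2-KD-only. In the earlier 50% of each chromosome's lines they had 15 and 18, with 9 shared and 6 WT-only, and the other acetylation genes had 80 and 71, with 30 shared, 50 WT-only and 41 STAG2-KD-only. With the 5′ end of the gene record as the only start, the other acetylation genes had 120 and 103 loops, with 46 shared, 74 WT-only and 57 STAG2-KD-only. With anchors within 2 bins counted as the same, 50.3% of their WT loops and 55.6% of their STAG2-KD loops were shared, and 90.9% of the members' STAG2-KD-only loops had a partner bin near an anchor of the WT list. With the bin on either side of a start counted, KAT2A had 3 STAG2-KD loops and CREBBP 1, EP300 had 2 STAG2-KD loops with 1 shared, and HDAC1 had 11 WT loops with 10 shared.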
